A study of Cavia porcellus with 24 samples.

Results

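Cytosines that lay in CpG-dense sequence and were nevertheless methylated in both tissues were collected from reduced representation bisulfite sequencing (RRBS) of the guinea pig. Of the 2564116 cytosines listed for both tissues, 2342490 had at least 20 reads in all 4 pools of reads, and 258051 of these (11.0%) were dense, that is, had at least 20 other listed cytosines of either strand within 100 bp. The members were the 55257 dense cytosines (21.4%) with a methylation of at least 80% in the control pool of both tissues, 27653 of them on the plus strand and 27604 on the minus strand. They lay on 281 of the 1450 scaffolds that hold listed cytosines. The coverage, the density and the control methylation of the members were therefore set by the choice and are given as a description.

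Hippocampus (HPC) and whole blood (BL) came from the same 12 female Hartley guinea pigs on postnatal day 14, 1 animal per litter. The mothers of 6 animals had been injected with betamethasone, a synthetic glucocorticoid (sGC), at 1 mg/kg in 3 courses during the later part of gestation, and the mothers of the other 6 had been injected with saline (control, Con). The study asked how prenatal sGC exposure changes methylation in the brain and whether blood shows the same changes. The reads of the 6 animals of a group were deposited as a sum, so that each of the 4 pools gives 1 value per cytosine, the spread between animals is unknown, and no test over animals could be made. Both tissues are mixtures of cell types, and a change in the make-up of the mixture cannot be told apart from a change within cells.

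RRBS reads DNA cut at MspI sites (CCGG), which enriches for CpG-rich sequence, and bisulfite treatment converts unmethylated cytosines, so that methylation is read as the share of reads with an intact cytosine. In mammals most CpGs are methylated, whereas CpG islands, the dense stretches found at many promoters, are mostly free of methylation. Dense sequence that carries methylation in many cell types is known from repeats, gene bodies, imprinted regions and promoters of germline genes, and it is kept at cell division by DNMT1, which copies methylation from the old strand of a CpG to the new one. Positions are those of the deposited tables, which use the cavPor3 assembly. No genome or annotation of that assembly was used here, so that the sequence of the members and their place in exons, introns or promoters were not analysed.

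The share of methylated cytosines was lower at higher density, although no density class was without them. Among cytosines with 20 reads or more in all pools, 54.0% of those with no listed neighbour within 100 bp had at least 80% methylation in both control pools. This share was 29.8% with 15 to 19 neighbours, 25.1% with 20 to 24, 17.6% with 30 to 34 and 6.02% with 50 or more. Cytosines with at most 20% methylation in both control pools went from 5.35% with no neighbour to 50.01% with 20 to 24 and 54.9% with 35 to 39, and stood at 45.8% with 50 or more. In the densest class 199 of 3304 cytosines were members and 1513 were at 20% or less in both control pools, and the others were intermediate or differed between tissues. Among all dense cytosines, 133007 (51.5%) were at 20% or less in both control pools. A further 18070 (7.00%) reached 80% in the blood control pool only and 3167 (1.23%) in the hippocampus control pool only.

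**Figure D1:**
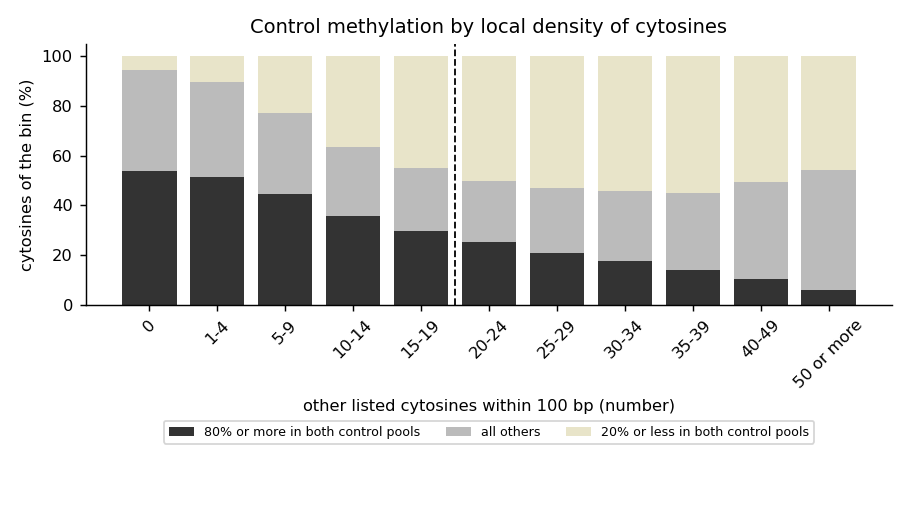
Share of cytosines (%) with at least 80% methylation in both control pools (black), at most 20% in both (beige) and all others (grey), by the number of other listed cytosines within 100 bp. The dashed line marks the minimum of 20 neighbours that defines dense cytosines, and the black share goes from 54.0% with no neighbour to 6.02% with 50 or more.

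The members had a median of 24 neighbours (quartiles 21 and 28, highest 71), and the dense unmethylated cytosines a median of 25 (22 and 30, highest 76). At the edge of the density minimum, 8302 members had exactly 20 neighbours and 10014 cytosines that met the other conditions had 19. Their mean control methylation was 92.5% and 92.5% in hippocampus and 94.6% and 94.5% in blood. At the edge of the methylation minimum, 1372 members had a lower control value between 80 and 81%, and 1002 dense cytosines had one between 79 and 80%. The members just inside averaged 82.1% in hippocampus and 88.8% in blood, and the cytosines just outside averaged 81.3% and 88.0%.

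The coverage of the members was close to that of all cytosines. The median number of reads per member was 91 in the hippocampus control pool (quartiles 68 and 117), 103 in the hippocampus sGC pool (75 and 134), 82 in the blood control pool (56 and 111) and 106 in the blood sGC pool (75 and 139). All cytosines with 20 reads in the 4 pools had medians of 96, 105, 90 and 110 in the same order, and the dense unmethylated cytosines had 108, 108, 98 and 123. Members were thus read somewhat less deeply than dense unmethylated cytosines in all 4 pools. At the high end, 137 members (0.248%) in 11 clusters on 7 scaffolds had at least 1000 reads in every pool and held 6.93% of the reads of all members, whereas 0.117% of all cytosines had that coverage.

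Mean methylation of the members was 92.5% in the hippocampus control pool and 94.7% in the blood control pool, which the choice had bounded at 80%. The methylation of the sGC pools, which hold other animals and for which the choice set only a minimum of 20 reads, had means of 92.7% in hippocampus and 94.9% in blood, with lowest values of 43.5% and 51.1%. In both sGC pools together, 53055 members (96.0%) were again at 80% or more. The same held for 95.02% of the 908809 methylated cytosines with fewer than 20 neighbours. Cytosines that lie close together share reads, so neither share rests on independent observations. High methylation of dense sequence was thus found again in animals whose methylation had no part in the choice, to about the same extent as in sparser sequence.

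Blood was slightly more methylated than hippocampus at the members. In the sGC pools the mean difference of blood less hippocampus was 2.13 percentage points, with quartiles of -0.92 and 4.76, and 66.0% of the members were higher in blood. The sparser methylated cytosines differed by 1.80 points, and 61.7% of them were higher in blood. Without the condition on methylation the difference was wider, at 3.64 points over all dense cytosines and 4.38 over all cytosines with 20 reads, of which 60.9% and 61.5% were higher in blood. Over the 2811 clusters with at least 5 members, the mean difference was 2.25 points and 79.2% of the clusters were higher in blood. With 1 pool per tissue and group, these differences could not be set against a spread between animals.

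Members lay side by side. Joined over gaps of at most 200 bp, they formed 3966 clusters, of which 379 held a single member, 2811 held at least 5 and 94 held at least 50. The median cluster had 10 members (quartiles 4 and 20) and spanned 82 bp (27 and 137), and the longest spanned 1333 bp. The largest 10% of the clusters held 33.0% of the members, and those with at least 50 members held 12.4%. A minimum of 20 neighbours favours long runs, so cluster size is in part set by the choice. Within the spans of the clusters, 68846 cytosines were listed and 80.3% of them were members. Of the rest, 10123 were below 80% in a control pool, but only 200 were at 20% or less in both, while 1491 had fewer than 20 reads in a pool and 1975 had too few neighbours.

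The surroundings of the members were methylated as well. For the median member, 94.7% of the listed neighbours with 20 reads within 100 bp were also at 80% or more in both control pools, and for 36.5% of the members every such neighbour was. Summed over members, 85.7% of the neighbours were methylated in this sense and 0.192% were at 20% or less in both. Only 1291 members (2.34%), in 179 clusters (4.51%), had such an unmethylated neighbour. Neighbours share fragments and reads with the members, so these are not independent observations. The dense unmethylated cytosines were more uniform still, with 64.9% of them surrounded by unmethylated neighbours alone. Members at the ends of clusters had levels close to those inside, although the minimum of 80% kept lower cytosines out of this comparison. In clusters of at least 20 members, the hippocampus control mean was 92.8% within 10 bp of a cluster's end, 93.5% at 11 to 30 bp and 92.7% beyond 100 bp.

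The strands of a CpG, which RRBS reads separately, were methylated together. A listed cytosine on the opposite strand was found for 43545 members (78.8%), and for 42631 of them it had 20 reads in all pools. Of these partners, 40126 (94.1%) were at 80% or more in both control pools and 42310 (99.2%) were at 70% or more. The partner was at 20% or less in both control pools at 13 members. At DS563026.1:147203, for example, the plus strand was methylated at 88.7% in the hippocampus control, 92.0% in the hippocampus sGC, 99.04% in the blood control and 97.7% in the blood sGC pool. Its partner on the minus strand, with 94 to 127 reads, had 0.980%, 0%, 0% and 0.787%. In 7 of the 13 pairs the low partner had at least 1000 reads in every pool, as at DS563782.1:6452, where the methylated minus strand had 725 reads in the hippocampus control pool and its low partner had 10935. Such unequal depth on the strands was measured at these sites, and its part in the difference between strands was not tested.

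Short scaffolds held a larger share of methylated dense sequence than long ones. The length of a scaffold was taken up to its last listed cytosine. On the 1249 scaffolds of up to 1 Mb, 18079 of 41310 dense cytosines (43.8%) were members, against 37178 of 216741 (17.2%) on the 201 longer ones, so that the short scaffolds held 32.7% of the members. Dense unmethylated cytosines showed the opposite order, with 22.8% of the dense cytosines on short scaffolds and 57.0% on long ones. The difference was also present at equal density, with 47.9% against 20.8% among cytosines with 20 to 24 neighbours. For cytosines with fewer than 20 neighbours the methylated share was 48.0% on short and 43.2% on long scaffolds. Over 5 length classes the shares of dense cytosines were 39.4% below 0.1 Mb, 45.2% from 0.1 to 1 Mb, 21.8% from 1 to 5 Mb, 17.0% from 5 to 20 Mb and 15.4% above 20 Mb.

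The difference by length was seen scaffold by scaffold, with wide overlap. Of the scaffolds with at least 100 dense cytosines, the 60 short ones had a median share of 48.98% (quartiles 29.7 and 61.7) and the 165 long ones a median of 12.6% (5.16 and 21.1). Coverage did not separate them by much, with member medians of 87 reads on short and 94 on long scaffolds in the hippocampus control pool and 78 and 84 in the blood control pool. Mean hippocampus control methylation of the members was 92.3% and 92.6%. At 4 scaffolds more than 90% of the dense cytosines were members, all of them under 0.1 Mb. These were DS563945.1 with 369 of 376, DS565400.1 with 145 of 148, DS564693.1 with 122 of 124 and DS563792.1 with 113 of 121. At the other extreme, 19 scaffolds with at least 100 dense cytosines held no member.

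**Figure D2:**
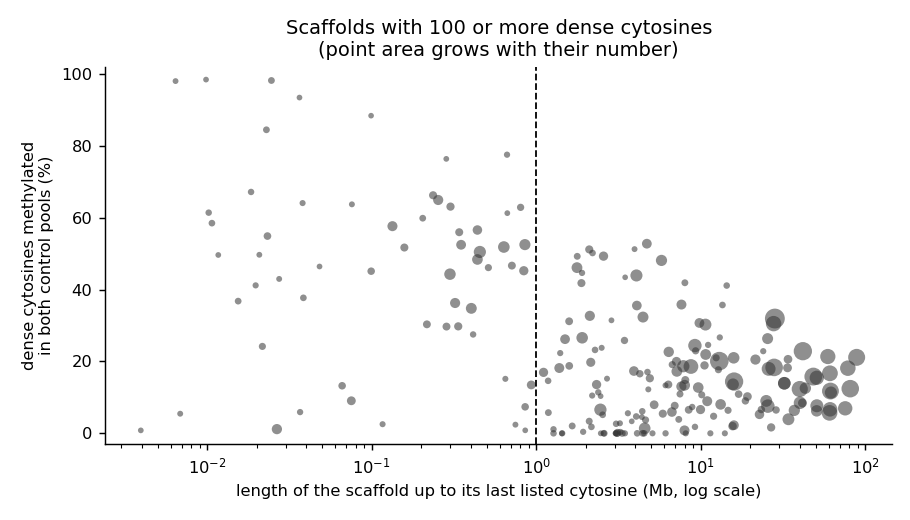
Share of dense cytosines (%) that were methylated in both control pools on each scaffold with at least 100 dense cytosines, against the scaffold's length up to its last listed cytosine (Mb, log scale), with the area of a point growing with the number of dense cytosines. The dashed line marks 1 Mb, left of which the median share was 48.98% and right of which it was 12.6%.

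The 10 scaffolds with the most members held 21.5% of them and 15.7% of all dense cytosines, and the leading 20 held 36.4% and 26.8%. The first was DS562880.1 with 2162 members (3.91%), which made up 31.9% of its 6772 dense cytosines. Near the ends of the 39 scaffolds longer than 20 Mb the share was higher than inside them. Within 0.1 Mb of the first or last position, 249 of 787 dense cytosines (31.6%) were members, on 12 scaffolds. The share was 20.3% from 0.1 to 1 Mb, 18.4% from 1 to 10 Mb and 10.8% further inside. Without the scaffold that gave the most members to each class, the shares were 31.2%, 18.0%, 17.0% and 10.2%. Scaffold ends are ends of the assembly, and whether they are ends of chromosomes was not tested.

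The 6 clusters with the most members were long runs of high methylation with ordinary coverage. The largest, DS562882.1:1920051-1921383, held 151 members among 185 listed cytosines, with a mean of 85.0 reads per member and pool. Its reads summed over members were methylated at 92.1% in the hippocampus control, 92.1% in the hippocampus sGC, 96.4% in the blood control and 96.9% in the blood sGC pool. Blood was higher than hippocampus in both groups. Inside this span a single minus-strand cytosine, 202 bp from the first member, had low values in every pool, with 17.9% of 112 reads, 29.8% of 121, 20.8% of 120 and 16.1% of 143 in the same order. The listed cytosines 4 bp before and 3 bp after it on the same strand, which share most of these reads, had between 79.8% and 96.3%.

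**Figure D3:**
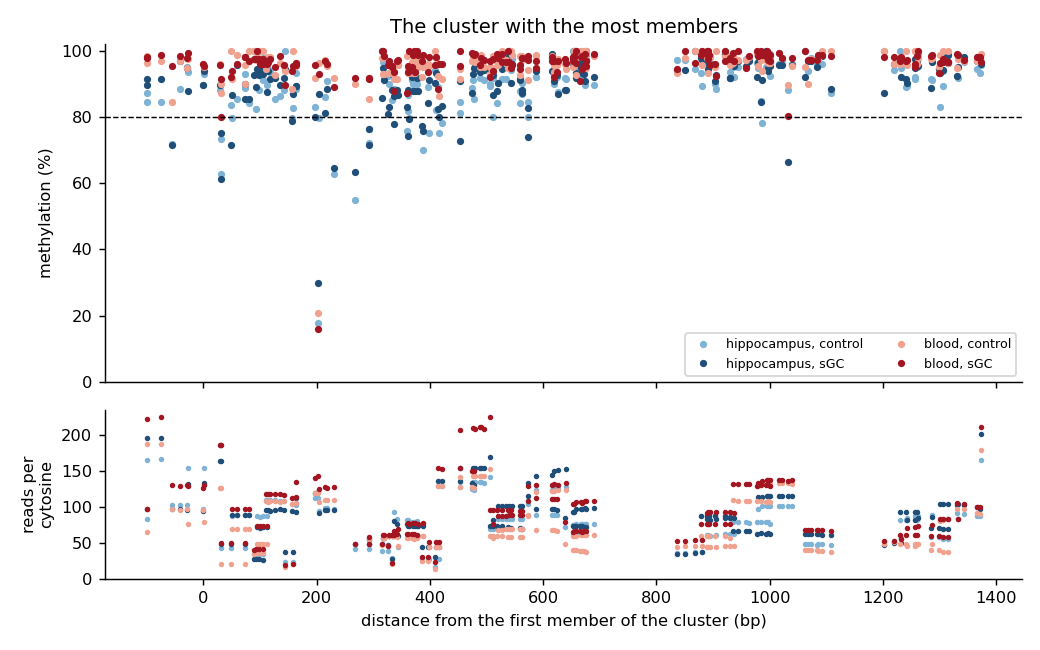
Methylation (%, upper panel) and reads (lower panel) of every listed cytosine in and around the cluster with the most members, against the distance from its first member (bp), with 1 colour per pool. The dashed line marks 80%, above which most of the cytosines lie in all pools, and the single low cytosine is at 202 bp.

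DS563175.1:329147-330015 held 130 members with 93.8% in the hippocampus control, 94.5% in the hippocampus sGC, 96.9% in the blood control and 96.9% in the blood sGC pool. DS562935.1:7461737-7462823 held 125, with 93.1%, 93.4%, 95.6% and 96.1%. DS562885.1:10822415-10823322 held 122, with 93.2%, 93.5%, 96.5% and 97.0%. Across these runs of about 0.8 to 1.3 kb, blood was above hippocampus in both groups and the pools of a tissue differed by less than 1 point. DS562945.1:2362642-2363720 held 116 members, with 95.3%, 95.7%, 96.3% and 97.2%. Of its 138 listed cytosines, 6 had fewer than 20 reads in a pool, and a single other one was below 80% in a control pool. DS562937.1:6756387-6757186 held 114, with 93.3%, 93.9%, 94.9% and 95.6%.

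The clusters of at least 3 members with the highest coverage were set apart by their depth, and 2 of the 3 lay close to the end of a scaffold. DS562861.1:3016615-3016801 had 19 members with a mean of 4566 reads per member and pool, and methylation of 84.8% in the hippocampus control, 85.8% in the hippocampus sGC, 89.2% in the blood control and 89.3% in the blood sGC pool. DS562864.1:59222025-59222213 had 30 members with a mean of 4261 reads and values of 95.9%, 96.1%, 96.4% and 96.3%. This cluster ended 15 bp before the last listed cytosine of its scaffold. DS562897.1:15950036-15950377 had 55 members with a mean of 1637 reads, values of 95.7%, 96.2%, 96.6% and 97.0%, and ended 845 bp before the last listed cytosine. In methylation these 3 clusters lay within the range of the other members.

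The member with the most neighbours, 71, lay in DS562927.1:6808042-6808372. This cluster had 56 members among 97 listed cytosines, and 41 of the 97 were below 80% in a control pool. Its members had 89.1% in the hippocampus control, 90.3% in the hippocampus sGC, 90.6% in the blood control and 87.4% in the blood sGC pool. Methylation was thus less uniform here than in the largest clusters.

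The methylation difference of sGC less control was small at the members. Its mean was 0.22 percentage points in hippocampus (quartiles -2.12 and 2.70) and 0.11 in blood (-1.97 and 2.30). The standard deviation over members was 4.21 points in hippocampus and 3.79 in blood, where the counting of reads alone gives 4.00 and 3.52. The 80% minimum on the control pools also bounds these differences, so the 2 kinds of spread are given side by side. At dense cytosines with 80% or more in both sGC pools the standard deviation was 4.55 in hippocampus and 3.80 in blood. The counting of reads alone gives 4.08 and 3.53 there. What sets the spread between members was not tested. Because the control pools chose the members, the difference depends on that choice. Dense cytosines at 80% or more in both sGC pools, chosen in place of the control pools, had mean differences of 1.02 points in hippocampus and 0.43 in blood. The minus-strand partners of plus-strand members had 0.55 and 0.25. The methylation minimum was not applied to these partners. They were not free of the choice, since over both strands 39774 of the 42631 partners with 20 reads were members themselves. All cytosines with 20 reads in the 4 pools had 1.11 and 0.58, and the sparser methylated cytosines, chosen on the same control pools, had 0.19 and 0.21. The mean was above 0 in each of these sets, but not in the members with the most neighbours. It was -0.13 points in hippocampus and -0.21 in blood at the 1265 members with 40 to 49 neighbours, and -0.74 and -1.17 at the 199 members with 50 or more. With 30 to 34 neighbours it was 0.10 in hippocampus and -0.0090 in blood, and with 35 to 39 it was 0.15 and 0.087.

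**Figure D4:**
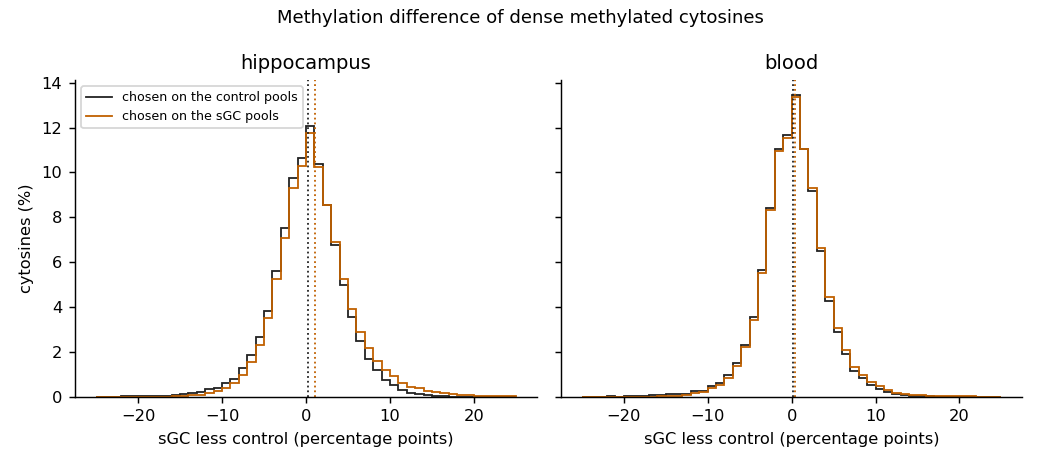
Distribution of the methylation difference (sGC less control, percentage points) over dense methylated cytosines in hippocampus and blood, as a percentage of cytosines per bin of 1 point, for cytosines chosen on the control pools (black) or on the sGC pools (orange). Dotted lines mark the means, 0.22 and 1.02 points in hippocampus and 0.11 and 0.43 in blood.

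A difference of at least 5 points upward was found at 6017 members (10.9%) in the hippocampus, where 18.8% of all cytosines with 20 reads moved as far, and at 4499 (8.14%) in the blood, where 15.1% did. Downward, 4952 members (8.96%) moved by at least 5 points in the hippocampus, against 9.74% of all cytosines, and 3963 (7.17%) in the blood, against 10.2%. The control pools chose the members, so these shares are given side by side and nothing is read from them.

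At the level of clusters with at least 5 members, the difference of the summed reads averaged 0.24 points in hippocampus (SD 1.497 over 2811 clusters) and 0.14 in blood (SD 1.52). Over all 3966 clusters, single members included and each cluster weighted equally, the means of the same difference were 0.0481 and 0.0209. Of the 2811 clusters with at least 5 members, in the hippocampus 4 had a difference of at least 5 points upward and 17 of at least 5 points downward. In the blood there were 1 and 36. Since members had to be high in both control pools, the choice favours lower values with sGC, and nothing is read from these counts. Among these 2811, the clusters with the largest differences, which are an end of this distribution by the way they were chosen, mostly differed in 1 tissue.

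In the hippocampus, the lowest difference among clusters of at least 5 members was at DS562910.1:3057009-3057037, where 8 members had 84.6% in the control and 72.8% in the sGC pool, a difference of -11.9 points with all 8 members lower. The blood had 91.4% and 89.7% there. DS562863.1:19812644-19812726 had 83.6% and 74.3% in the hippocampus, with 11 of 12 members lower, and 90.3% and 89.99% in the blood. DS562887.1:2040734-2040803 had 89.2% and 80.4%, with all 19 members lower, and 91.6% and 91.6% in the blood. At each of these 3 clusters the difference in the blood was within 2 points.

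The highest hippocampus difference among clusters of this size was at DS562863.1:7345508-7345592, with 84.8% in the control and 92.6% in the sGC pool, a difference of 7.72 points with all 14 members higher, while the blood had 93.8% and 92.2%. DS562868.1:24459819-24459834 had 84.1% and 90.4% in the hippocampus, while the blood had 94.7% and 96.7%. DS562880.1:7666954-7667074 had 86.7% and 92.3%, and 92.9% and 92.3% in the blood. The control hippocampus was within 7 points of the 80% minimum at all 3.

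In the blood, DS562880.1:26079323-26079398 had 84.4% in the control and 68.8% in the sGC pool, a difference of -15.7 points with all 6 members lower, and the hippocampus had 88.3% and 90.6%. DS562856.1:80422918-80423006 had 82.3% and 68.1% in the blood at 6 members, with a mean of only 40.04 reads per member and pool, and 95.7% and 96.9% in the hippocampus. DS562870.1:31975330-31975349 had 83.2% and 70.3% at 7 members, all lower, and 89.1% and 88.9% in the hippocampus. Blood was the less methylated tissue at these 3 clusters already in the controls, the reverse of its order over all members.

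The highest blood difference among clusters of this size was 7.21 points, at DS562858.1:72972797-72972848, where all 16 members were higher with sGC and the pools had 87.7% and 94.9%. The hippocampus had 95.6% and 93.8% there. DS562995.1:1191928-1192001 had 93.5% and 98.5% in the blood at 5 members with a mean of 34.9 reads per pool, and 85.4% and 88.4% in the hippocampus. DS562900.1:1805802-1805845 had 91.8% and 96.5% in the blood, and 87.3% and 86.6% in the hippocampus.

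A difference of at least 5 points in both tissues was found at 4 of the 2811 clusters, all lower with sGC in both. They are named because of these values, and since members had to be high in both control pools, the choice favours this direction and nothing is read from it. DS562908.1:12611814-12611869 had 91.4% in the control and 84.3% in the sGC pool of the hippocampus and 96.2% and 88.7% in the blood, with 9 of 10 members lower in the hippocampus and 10 of 10 in the blood. DS562887.1:12334302-12334580 had 87.6% and 81.8% in hippocampus and 83.8% and 78.0% in blood, with 12 of 14 and 14 of 14 members lower. DS562870.1:38018041-38018097 had 85.9% and 78.9%, and 87.6% and 82.0%. DS562856.1:79353535-79353624 had 85.2% and 80.1%, and 85.0% and 78.8%. The tissues came from the same animals, so that these are not separate observations of the exposure.

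For single members, methylated and unmethylated reads of the sGC and control pools were compared by Fisher's exact test (two-sided), and p-values were adjusted by Benjamini-Hochberg over the whole table of a tissue. A call required a difference of 5 points or more together with an adjusted p under 0.05. In the hippocampus 9 members were called, 1 higher and 8 lower with sGC, where 0.112% of all 2869370 cytosines tested were called (0.0729% higher and 0.0391% lower). In the blood 14 were called, 1 higher and 13 lower, where 0.317% of all 2927801 were called (0.192% higher and 0.125% lower). The direction of the calls turned round with the pools that chose the cytosines. Among dense cytosines at 80% or more in both sGC pools, 24 were called in the hippocampus, 23 higher and 1 lower, and 15 in the blood, 12 higher and 3 lower. Nothing is therefore read from the number or the direction of the members' calls. The test takes reads as independent and compares pools, not animals. No member was called when the chi-square statistic of each cytosine was divided by the inflation factor of its tissue, 1.76 in hippocampus and 1.73 in blood. The share of all cytosines called after this division is not given here, so nothing particular to the members is read from it. Among the minus-strand partners of the 21334 plus-strand members with a partner at 20 reads, the Fisher test called 14 in the hippocampus (0.0656%), 5 of them higher, and 17 in the blood (0.0797%), again 5 higher.

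The called members are described by their values in the 4 pools. On DS562867.1, 2 plus-strand members of a cluster of 42 lay 19 bp apart. At position 41069018 methylation was 98.97% of 97 reads in the hippocampus control and 79.9% of 144 in the hippocampus sGC pool (adjusted p = 0.0028, Fisher's exact test), and 98.4% of 63 and 82.2% of 135 in the blood (adjusted p = 0.14). At position 41069037 it was 100% and 83.4% in the hippocampus (adjusted p = 0.0040, Fisher's exact test) and 95.2% and 79.5% in the blood (adjusted p = 0.36). The sGC pools were lower than the control pools in both tissues at this pair, which was not called in the blood. The pair is named because of its hippocampus calls. Cytosines 19 bp apart on the same strand can share reads, so the 2 are not separate observations.

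On DS563223.1 both strands of a CpG were called in the hippocampus. The plus strand, at position 18013, had 98.9% in the control and 79.8% in the sGC pool (adjusted p = 0.013) and the minus strand, at 18014, had 98.1% and 81.4% (adjusted p = 0.037), by the Fisher test. The blood had 95.8% and 79.2% on the plus strand (adjusted p = 0.18, Fisher's exact test). On the minus strand it had 90.2% and 80.6% (adjusted p = 0.93, Fisher's exact test), and neither strand was called there. The sGC pools were thus lower than the control pools on both strands and in both tissues at this CpG. The same scaffold held the call with the lowest adjusted p in the blood, at 102373 on the minus strand, with 97.6% and 74.1% (adjusted p = 0.0030, Fisher's exact test). Deep members with small differences could also be called, as at DS562968.1:1721379, with 93.4% of 304 reads and 84.3% of 413 in the blood (adjusted p = 0.048, Fisher's exact test), while the hippocampus had 81.9% and 85.9%.

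The 2 members called higher were at DS562861.1:21190891 in the hippocampus, with 80.2% in the control and 98.7% in the sGC pool, and at DS562868.1:7036982 in the blood, with 88.8% and 100%. The first rested on 106 and 76 reads and lay close to the 80% minimum in the control pool.

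**Figure D5:**
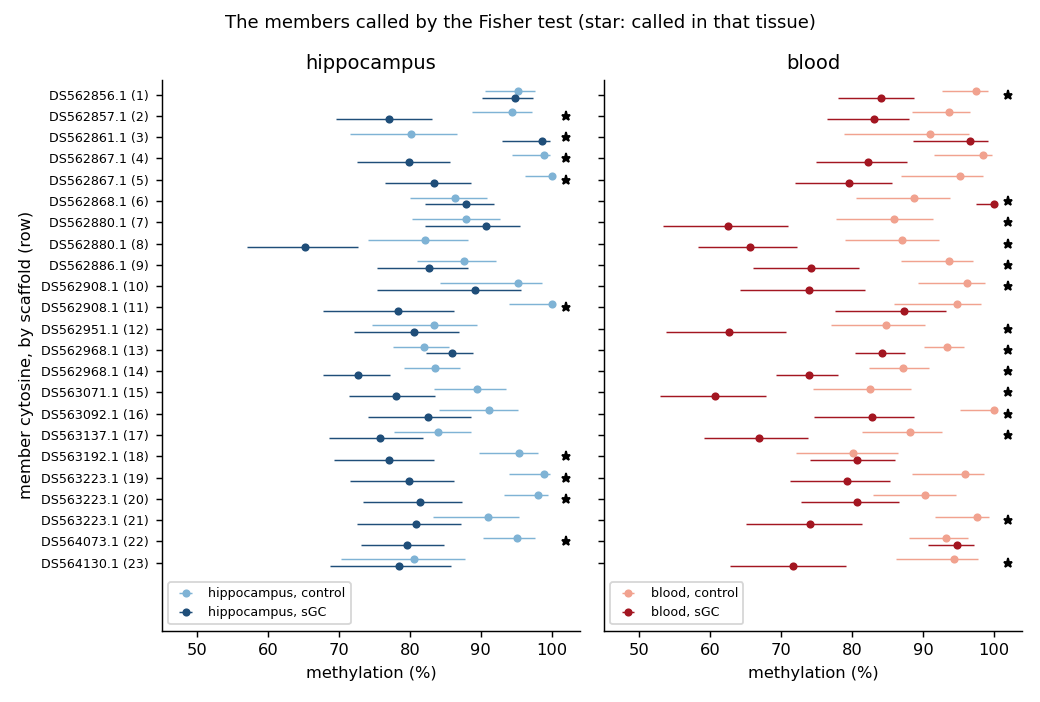
Methylation (%) of the 23 members called by the Fisher test, 1 row per cytosine, in the control (light) and sGC (dark) pools of hippocampus and blood, with 95% Wilson intervals that cover counting error only. A star marks the tissue in which the member was called, and 8 of the 9 hippocampus calls and 13 of the 14 blood calls were lower with sGC, a direction that turned round when cytosines were chosen on the sGC pools.

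Gene names were available only by position, from the cytosines that the study's supplementary tables pair with a name, and those tables were held in part. A cluster was placed in a gene where it lay between the first and the last such cytosine. The names were thus chosen on differences in these same samples and carry no independent evidence, and exons and introns are not known. Of 170 genes with positions, 6 held a cluster, with 52 members in all, and none of the clusters named above by their size, coverage, density or difference lay in one of them.

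ZFPM2, a zinc finger cofactor of GATA transcription factors, held the largest of them. Its 29 members at DS562855.1:2799617-2799751 had 96.9% in the hippocampus control, 96.7% in the hippocampus sGC, 94.97% in the blood control and 95.4% in the blood sGC pool. ROR1, a receptor of Wnt signalling, held 4 members at DS562857.1:68163989-68164031 with 96.5%, 95.2%, 96.6% and 95.5%. PHLDB1, a protein with a pleckstrin homology domain, held 5 at DS562874.1:29426737-29426776 with 91.0%, 91.5%, 97.3% and 95.5%. In these 3 genes the pools of a tissue were within 2 points of each other.

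NFIA, a transcription factor of the nuclear factor I family with a role in glial development, held 8 members at DS562857.1:69834820-69834904. Their summed methylation was 90.7% in the hippocampus control, 88.0% in the hippocampus sGC, 94.2% in the blood control and 92.9% in the blood sGC pool. A single member of the 8 was called, at 69834859 on the plus strand, with 94.4% of 124 reads and 77.0% of 148 in the hippocampus (adjusted p = 0.049, Fisher's exact test), and 93.7% and 83.0% in the blood (adjusted p = 0.34). In the hippocampus 5 of the 8 members were lower and 3 higher with sGC. The minus-strand member at 69834821 had 91.2% of 80 reads in the control and 77.4% of 62 in the sGC pool and was not called, and the members 9 and 16 bp after the called one on its strand, with nearly the same reads, had 87.1% and 84.8% in the control and 90.5% and 90.5% in the sGC pool.

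REM1, a small GTPase that inhibits voltage-gated calcium channels, held 4 members at DS562863.1:1521921-1521962. The hippocampus had 82.5% in the control and 91.7% in the sGC pool, a difference of 9.26 points with all 4 members higher, and the blood had 89.3% and 87.5%. None of the 4 was called by the Fisher test. The cluster had too few members for the comparison of clusters above, and 5 of its 9 listed cytosines were below 80% in a control pool. FOXP4, a forkhead transcription factor, held both strands of 1 CpG at DS562870.1:32334220-32334221, with 82.4% and 83.9% in hippocampus and 95.4% and 98.5% in blood. Neither was called.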

How the data were processed

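RRBS libraries from 24 samples (2 tissues of 12 animals) were trimmed with Trim Galore, aligned with Bismark 0.16.0 to cavPor3 and sorted with SAMtools 1.7, per the labels and the study's methods. The authors deposited, per tissue, a table that gives, for every cytosine with at least 10 reads, the methylated counts and the coverage (all reads), neither normalized, as sums of the 6 animals in each group, and an FDR of their own comparison, which was not used.

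The tissues were joined on scaffold, position and strand. Members followed the rule stated in the report, with at least 20 reads, 20 neighbours within 100 bp and 80% control methylation. Neighbours are listed cytosines, so density also depends on what RRBS covered. Clusters joined members over gaps of up to 200 bp. The Fisher test and its adjustment were checked on simulated data. The simulated reads were independent and had no spread between animals, so the check does not cover that spread. Coverage limits a single cytosine (95% Wilson intervals), and the intervals cover counting error only.

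Clusters named were the 6 with the most members, the 3 of at least 3 members with the highest coverage, the 3 with the largest difference in each direction and tissue among clusters of at least 5 members, and that holding the member with the most neighbours. Members, lists and tests were chosen with earlier results of these data known, and the clusters in genes and those past 5 points in both tissues were named after their values were seen. Planned lists of germline, protocadherin, zinc finger and methylation genes needed an annotation of cavPor3 and were not analysed here. Calculations used Python 3.11.15 (pandas 2.3.3, numpy 2.4.6, numba 0.67.0, scipy 1.17.1) and figures matplotlib 3.10.9.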

Additional observations from a re-analysis of the deposited data

How the results depend on the processing

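Of 51 alternatives, 18 gave about the same value, 33 moved it and 0 reversed its sign. Only the mean differences could reverse their sign, since counts, medians and shares cannot be negative. About the same was judged by ratio for counts and medians, and more strictly, by counting error, for means and shares. So 36917 members at a minimum of 90% methylation, against 55257, were taken as about the same. A share of 16.7% on the longer scaffolds without the one with the most members, against 17.2%, was taken as moved. This tally takes the number of calls without their direction, which turned from mostly lower to mostly higher with sGC in both tissues when dense cytosines were chosen on the sGC pools. Those on scaffold length and on the difference between tissues were added with the data in view. The number of members was 125956 with 15 neighbours, 23498 with 25 and 126556 with 10 other CpGs counted over joined strands. The mean sGC less control difference in hippocampus and blood was 1.02 and 0.43 points with members chosen on the sGC pools, 0.61 and 0.27 on the mean of control and sGC, 1.43 and 0.0800 on the control pool of the other tissue only, 0.55 and 0.25 on the opposite strand, 0.33 and 0.16 with reads summed over members, 0.0481 and 0.0209 with clusters weighted equally, and 0.30 and 0.17 with at least 50 reads. The size of the mean therefore depends on the choice of members and on their weighting, and the cause was not tested. At an adjusted Fisher p below 0.01, 2 members were called in hippocampus and 1 in blood, with 0 in either tissue once the chi-square was divided by the inflation factor. The shares of all cytosines called at these settings are not given here, so nothing particular to the members is read from these counts. The share of members at 80% or more in both sGC pools was 95.3% on the opposite strand and 89.0% with a minimum of 90% in all pools. Opposite-strand partners were at 70% or more for 99.2%. The share of dense cytosines that were members on scaffolds up to 1 Mb and over 1 Mb was 42.2% and 16.4% with 50 reads, 28.7% and 11.6% at 90% methylation and 45.2% and 17.6% when chosen on the sGC pools, and 16.7% on the longer scaffolds without the one with the most members. Blood less hippocampus was 2.23 points when chosen on the sGC pools and 2.09 with 50 reads. No paired analysis was possible because the counts were deposited as sums over the 6 animals of a group, and for the same reason no animal could be left out.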
